A study of Rattus norvegicus with 15 samples.

Results

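Transcripts of 6 genes of the unfolded protein response, Eif2ak3, Atf4, Atf5, Ddit3, Hspa5 and Xbp1, were looked up by gene name among 41012 probes of a whole rat genome array hybridized with RNA from olfactory epithelium. Of the 6 genes, 5 had a probe, each of them 1 probe, which makes 5 probes in all. No probe carried the name Xbp1, so that gene's transcript was not analysed here. The epithelium came from 8 Brown Norway rats, 4 males and 4 females, aged 6 weeks per the labels. Per the study, they had not been exposed to a particular odorant, and rats were anesthetized with ketamine before being killed. No other treatment is described. Rats 1, 2, 5 and 6 are males and rats 3, 4, 7 and 8 are females. Each nostril gave its own RNA sample and its own array, and the labels name the nostrils A and B without saying which was left. Male 1 was represented by nostril A alone, which gave 15 arrays. The rats had been bought from 2 suppliers, 4 rats from each, and the labels do not say which rat came from which. The study's methods state that the 1 sample dropped for RNA integrity was the left one of a male supplied by Elevage Janvier, which points to nostril B of male 1, and the supplier of the other rats is not given in the sources used here. There was no stressed or treated group, so the values below describe the tissue as dissected and its variation between animals, sexes and nostrils. The RNA is that of the whole dissected epithelium, in which a larger number of cells of 1 type and more RNA per cell cannot be told apart.

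The unfolded protein response is the set of signals a cell sends when proteins misfold in its endoplasmic reticulum (ER). Eif2ak3 encodes PERK, a kinase that senses the stress and slows translation, which favors the synthesis of the transcription factors ATF4 and ATF5. Ddit3 encodes CHOP, a transcription factor downstream of ATF4, Hspa5 encodes BiP, the main ER chaperone and a target of the response, and Xbp1 encodes the factor made when the sensor IRE1 splices its RNA. In olfactory sensory neurons a receptor protein that has just been made is known to engage PERK, and the resulting translation of ATF5 takes part in locking in the choice of that receptor gene. Translation of ATF4 and ATF5 and phosphorylation of PERK are not seen by an array, which measures RNA only.

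The probes are 60 bases long, and the array annotation places them on build rn3. The Eif2ak3 probe (A_44_P466200) was assigned to chr4:104319599-104321614, a span of 2016 bases, and the Ddit3 probe (A_44_P445344) to chr7:67272405-67272766, a span of 362 bases. Both spans exceed the probe, so each probe is split on the genome, as across an exon junction. The Atf4 probe (A_42_P620762) lies at chr7:118573070-118573129, the Atf5 probe (A_42_P665879) at chr1:95362208-95362267 on the minus strand and the Hspa5 probe (A_44_P1054213) at chr3:13684111-13684170. Exons and untranslated parts are not given there. The probes of Eif2ak3, Atf4 and Ddit3 had at least 1 forward reading frame without a stop codon and no polyadenylation signal, and their sequences are shown because they define which part of the transcript was measured.
Eif2ak3 probe: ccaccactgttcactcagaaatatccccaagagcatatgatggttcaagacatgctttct
Atf4 probe: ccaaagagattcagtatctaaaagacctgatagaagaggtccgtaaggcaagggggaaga
Ddit3 probe: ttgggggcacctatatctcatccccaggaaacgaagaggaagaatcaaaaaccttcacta

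A feature shared by part of the group lies in the promoters. The ER stress response element, the site of the factors ATF6 and XBP1, was searched as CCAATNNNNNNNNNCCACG on both strands of 300-base RefSeq promoters of build GRCr8. It was found in 21 of 27457 promoters, or 0.0765%. The promoters of Hspa5 and Xbp1 held 1 match each, and those of Eif2ak3, Atf4, Atf5 and Ddit3 held 0. The Hspa5 match began 43 bases before the transcript start and the Xbp1 match 65 bases before it. Of the ER chaperones and foldases described further on, 5 of 11 with a promoter in the table held the element, namely Calr, Canx, Creld2, Dnajc3 and Hsp90b1. Among the other pathway lists it was held by 1 of 7 genes of ER-associated degradation (Derl3) and 0 of 8 stress sensors and eIF2 kinases. It was held by 0 of 10 targets of ATF4 and CHOP and 0 of 6 genes of receptor choice and export. The 250 bases before the Hspa5 start, chr3:38452766-38453015 on the plus strand, are printed with the fixed letters of the element in capitals.
Hspa5 promoter: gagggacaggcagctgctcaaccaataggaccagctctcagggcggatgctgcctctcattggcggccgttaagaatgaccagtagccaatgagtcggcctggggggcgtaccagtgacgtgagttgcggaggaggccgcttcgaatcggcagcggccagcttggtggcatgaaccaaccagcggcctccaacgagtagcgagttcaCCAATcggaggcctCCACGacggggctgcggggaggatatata
The core of the response element of ATF4 and C/EBP factors, TGATGCAA, which does not overlap the first motif, was present in 204 promoters, or 0.743%, and in 0 of the 6. A match is a run of letters and says nothing of whether a factor was bound in this tissue.

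Levels are given as log2 of the processed signal over the median of its array, so that 0 is the level of the median probe of that array. Such levels can be followed between arrays for 1 probe but cannot be compared between probes. Array medians were between 57.4 and 70.9 intensity units in males and between 65.0 and 83.4 in females, and each array had 26233 to 28741 probes well above background. The arrays lay on 4 slides: males 1 and 2 and nostril A of female 3 on the first, nostril B of female 3 and female 4 on the second, males 5 and 6 on the third and females 7 and 8 on the fourth. Slide and animal therefore overlap almost fully, and only slide 1 holds both sexes. All 5 probes were well above background on 15 of 15 arrays and saturated on 0, so all 5 counted as expressed, which is detection on at least 11 arrays. Omp, the defining marker of mature olfactory neurons, was also detected on 15 arrays (median log2 level 7.54).

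**Figure D1:**
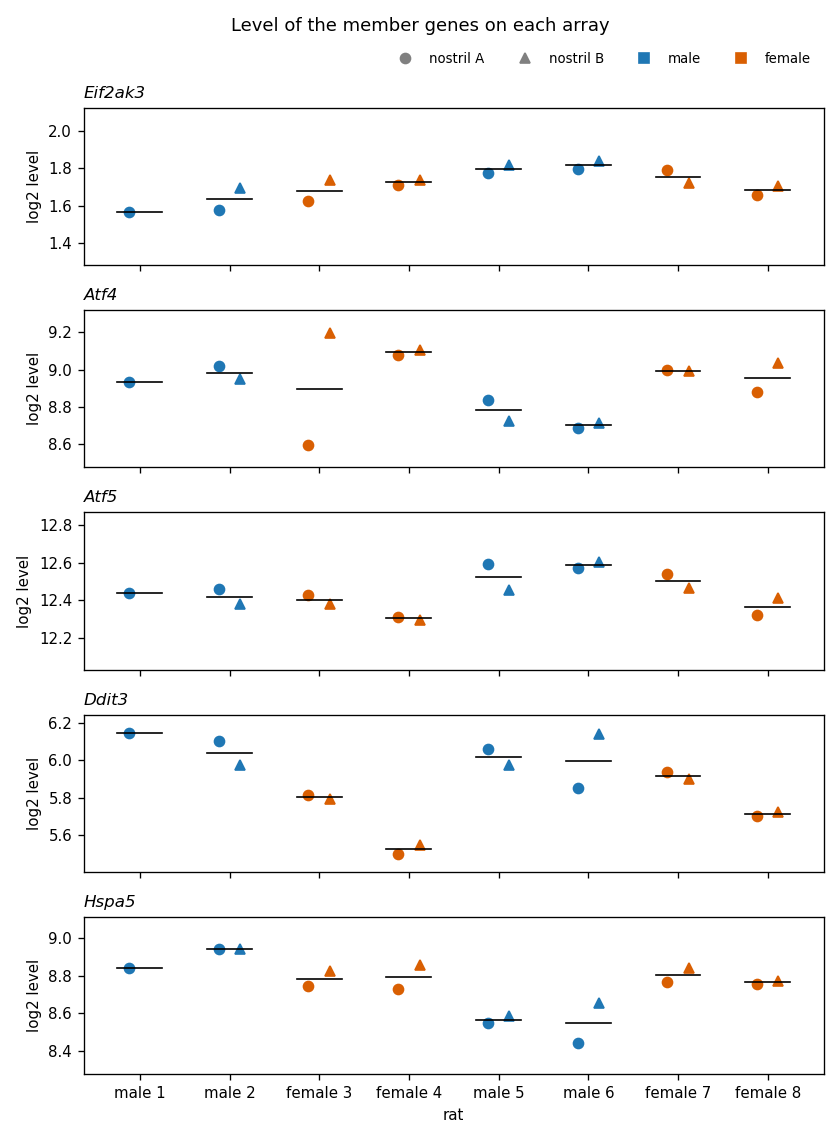
Log2 level over the array median (vertical axes, each spanning the same width) of Eif2ak3, Atf4, Atf5, Ddit3 and Hspa5 in nostril A (circles) and nostril B (triangles) of each rat, with males in blue, females in orange and the rat mean as a bar. Ddit3 is the one gene whose male bars all lie above its female bars, and nostril A of female 3 stands at 8.60 for Atf4 against 9.20 in nostril B.

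Eif2ak3, the PERK sensor, was the least variable of the 5. Its level ran from 1.57 in male 1 nostril A to 1.84 in male 6 nostril B, with a median of 1.72 over 15 arrays. In males the arrays gave a lowest value of 1.57, in male 1, and in females the lowest was 1.62, in nostril A of female 3. The rat means were highest in males 6 and 5 (1.82 and 1.79), next in females 7 and 4 (1.75 and 1.73), then in females 8 and 3 (1.68 each), and lowest in males 2 and 1 (1.64 and 1.57). Males thus stood at both ends and the sexes overlapped. Of the 7 gaps between rats next to each other in that order, 6 were smaller than the SD between nostrils of 1 rat, 0.051.

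Atf4 RNA, from which the main effector of PERK is translated, had a median level of 8.95 and ran from 8.60 to 9.20. Both ends came from female 3, nostril A giving the lowest and nostril B the highest value of all arrays. The rat means ran from 9.09 in female 4 and 8.99 in female 7 down to 8.78 in male 5 and 8.70 in male 6. Males 5 and 6 were the lowest rats, and males 1 and 2 (8.93 and 8.98) lay among the females. None of the 7 gaps between neighboring rats exceeded the SD between nostrils, 0.17, to which female 3 contributed most.

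Atf5, the factor tied to receptor choice, had a median log2 level of 12.44. Its 15 values ran from 12.29 in female 4 nostril B to 12.60 in male 6 nostril B. The rat means fell from 12.59 in male 6, 12.52 in male 5 and 12.50 in female 7 through 12.44 in male 1, 12.42 in male 2 and 12.40 in female 3 to 12.37 in female 8 and 12.30 in female 4. The order mixes the sexes at the top, and the largest gap between neighbors was 0.065 against an SD between nostrils of 0.056. The Atf5 probe gave processed signals of 344609 to 420240 intensity units and was not flagged as saturated on any array. Before scaling the order was different, with the highest signals in female 4 (420240 and 418713) and the lowest in male 5 (354581 and 344609). The array medians that divide these signals were 82.7 and 83.4 in female 4 and 57.4 and 61.4 in male 5, also the highest and lowest animals, so the order of Atf5 over rats depends on the scaling.

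Ddit3, the CHOP gene, ranged most. Its level ran from 5.50 in female 4 nostril A to 6.15 in male 1 nostril A, with a median of 5.90. The 4 male means were 6.15 in male 1, 6.04 in male 2, 6.02 in male 5 and 6.00 in male 6. The 4 female means were 5.92 in female 7, 5.81 in female 3, 5.71 in female 8 and 5.53 in female 4. Every male mean was above every female mean, although single arrays overlapped, since nostril A of male 6 gave 5.85 and both nostrils of female 7 gave 5.94 and 5.90. Female 4 lay farthest from its neighbor, 0.19 below female 8, against an SD between nostrils of 0.089.

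Hspa5, the BiP chaperone gene, had a median level of 8.77 and ran from 8.44 in male 6 nostril A to 8.95 in male 2 nostril A. The 4 females were close together, with means of 8.77 to 8.81 (SD 0.017). The males lay on either side of them, with 8.94 in male 2 and 8.84 in male 1 above, and 8.57 in male 5 and 8.55 in male 6 below. The break between female 8 and male 5, 0.20, was the widest between neighboring rats. Males 1 and 2 shared slide 1 and males 5 and 6 shared slide 3, so that these pairs of rats and their slides cannot be told apart, and the part of the supplier was not tested.

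The range over the 8 rat means was 0.25 for Eif2ak3, 0.29 for Atf5, 0.39 for Atf4, 0.40 for Hspa5 and 0.62 for Ddit3, in log2 units. These ranges correspond to folds of 1.19, 1.22, 1.31, 1.32 and 1.54. Over all 27574 probes tested on single arrays the median range was 0.47, a 1.38-fold range. The ranges of Eif2ak3, Atf5, Atf4 and Hspa5 lay at percentiles 11.7, 17.6, 36.9 and 38.3 of all probes, and that of Ddit3 at percentile 67.7. The SD between nostrils of 1 rat was at percentile 68.2 for Atf4, and for the other 4 genes it lay between percentiles 4.61 and 33.6.

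**Figure D2:**
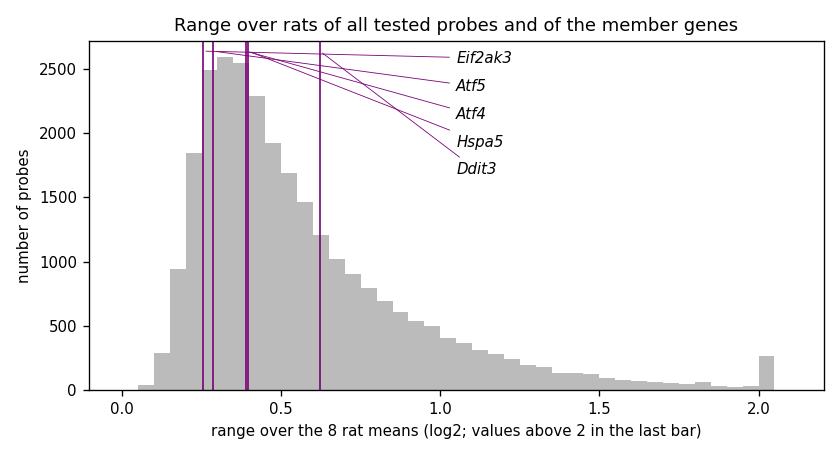
Number of probes (vertical axis) by their range over the 8 rat means in log2 units (horizontal axis), for 27574 tested probes, with the values of the 5 genes as lines. The lines of Eif2ak3 (0.25), Atf5 (0.29), Atf4 (0.39) and Hspa5 (0.40) fall below the median of all probes (0.47) and that of Ddit3 (0.62) above it.

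The sexes were compared on rat means, 4 against 4, to ask whether any of these transcripts differ between males and females. Ddit3 RNA was 1.24-fold higher in males, 6.05 ± 0.07 against 5.74 ± 0.17 (log2 level, SD, n = 4 each), and the other 4 genes differed by at most 0.13 log2 units. By limma, with p-values adjusted over 27625 probes at a false discovery rate of 1%, 0 of the 5 probes passed, where 0.0434% of all probes did. At an unadjusted p under 0.05 there was 1 of 5, Ddit3, against 17.1% of all probes. The Ddit3 difference, female minus male, was -0.31 (SE 0.084, limma adjusted p = 0.131). An exact permutation test over rats gave p = 0.0286, two-sided, which is the smallest that 4 against 4 rats allow. Separation of the rat means of the sexes, as seen for Ddit3, occurred in 11.3% of all probes. On slide 1 alone, where 3 male arrays can be set against 1 female array, the difference was -0.26, and with slide as a block it was -0.31 (limma adjusted p = 0.226).

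The blood list (Hbb, Alas2 and Slc4a1, 3 tested probes of 4) averaged 5.34 to 7.91 in males and 4.03 to 7.07 in females. Female 4, with the lowest Ddit3, had the highest blood level among females (7.07), and male 1, with the highest Ddit3, was at 7.00. None of the 3 probes passed between the sexes (lowest limma adjusted p = 0.146, Slc4a1). Between rats of 1 sex 2 of 3 passed 1%, Alas2 (limma adjusted p = 0.000792) and Hbb (limma adjusted p = 0.00181), and Slc4a1 passed 5% (limma adjusted p = 0.0164). In that fit 2.79% of all probes passed 1% and 16.1% passed 5%. With slide as a block 0 of 3 passed 1% between rats, where 0.0036% of all probes did. The part of blood in the Ddit3 difference and in the differences between rats was not tested. Processed Ddit3 signals before scaling were 3393 to 4848 in males and 3747 to 4234 in females and overlapped.

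For Atf4, the female mean was 8.98 ± 0.08 and the male mean 8.85 ± 0.13 (SD, n = 4 each), a difference of 0.13 (SE 0.074, limma adjusted p = 0.383). The sign turned with slide as a block, to -0.38 (SE 0.080, limma adjusted p = 0.0153), a fit in which the sexes meet on slide 1 only and females are represented there by nostril A of female 3. Atf5 stood at 12.49 ± 0.08 in the 4 males against 12.39 ± 0.08 (SD) in the 4 females, so that female minus male was -0.10 (SE 0.060, limma adjusted p = 0.428), but the sign turned with quantile normalization, to 0.14 (SE 0.045, limma adjusted p = 0.170). Hspa5 differed by 0.06 (SE 0.089, limma adjusted p = 0.754) and Eif2ak3 by 0.0063 (SE 0.079, limma adjusted p = 0.977), and both signs turned with normexp background correction, to -0.00027 and -0.0100. Hspa5 was far more spread among males (SD 0.20) than among females (SD 0.017), a contrast that was not tested.

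The nostrils of 7 rats were compared with rat as a block, to ask whether the sides of the nose differ. By limma 0 of the 5 probes passed 1%, as did 0% of all probes, and 1 of 5 had an unadjusted p under 0.05, against 5.89% of all probes. That gene was Hspa5, 0.077 higher in nostril B (SE 0.032, unadjusted p = 0.0396, limma adjusted p = 0.781), a sign that turned with normexp, to -0.052 (SE 0.18). Its level was higher in nostril B in 6 of 7 rats, by up to 0.21 in male 6, and lower by 0.0041 in male 2. Eif2ak3 was also higher in nostril B in 6 of 7 rats, with a mean difference of 0.044 (limma adjusted p = 0.831), which was -0.031 with normexp. Atf5 was higher in nostril B in 2 of 7 rats, Ddit3 in 3 and Atf4 in 4.

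**Figure D3:**
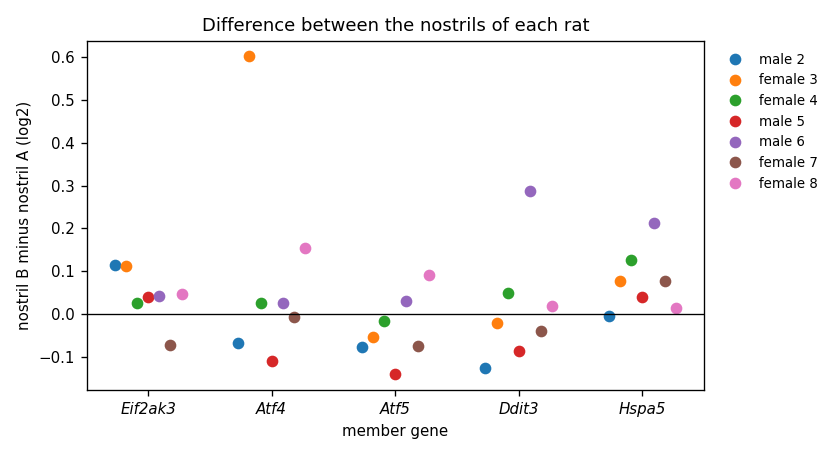
Difference between nostril B and nostril A (log2 units, vertical axis) of each of the 7 rats with both nostrils, for each of the 5 genes. For Atf4, female 3 stands apart at 0.60, while the other 6 rats lie between -0.11 and 0.15. For Ddit3, male 6 is highest at 0.29.

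Atf4 in female 3 was the widest difference between nostrils among the 5 genes, 8.60 in nostril A and 9.20 in nostril B, or 1.52-fold. The nostrils of this animal were on different slides, the one such case among the 7 rats, so that nostril and slide cannot be told apart. Female 3 also differed widely over the whole array: 11.8% of all probes changed by more than 0.5 log2 units between its nostrils, against 4.52% to 11.3% in the other rats. Among 60 tested probes of related pathway genes, 4 exceeded 0.5 in female 3, a smaller share than over all probes. All 4 were lower in nostril A, as Atf4 was: Ppp1r15a, the GADD34 phosphatase subunit that restarts translation after PERK signaling (5.39 against 6.20), the ER co-chaperone Dnajc3 (3.95 against 4.72), Creld2, an ER stress-inducible foldase (4.27 against 4.97), and Eif2ak1, another eIF2 kinase (6.40 against 6.93). These were chosen by their size in female 3, and the share of all probes lower in its nostril A was not counted. Other pathway probes went the opposite way by less than 0.5, such as Rtp1 (3.37 in nostril A against 3.12) and Nupr1 (8.20 against 7.95). Female 3 lay outside the range of the other 6 rats in 38.3% of the 60 probes and in 43.7% of all probes. Atf5, Ddit3, Hspa5 and Eif2ak3 differed between the nostrils of female 3 by -0.053, -0.020, 0.078 and 0.11.

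Rats of 1 sex were then compared with each other, with the difference between nostrils as the error, to ask whether animals differ individually. Hspa5 had the highest F of the 5 genes on the median scale (F = 7.05), with males 1 and 2 above males 5 and 6, but not in every setting. Without male 2 it fell to 2.26 (limma adjusted p = 0.274), below Ddit3 and Atf5. With normexp it was 0.99 (limma adjusted p = 0.918), below Atf5 (1.79) and Ddit3 (1.37), and with slide as a block 0.47 (limma adjusted p = 0.856). Without male 6 it was 9.99, and Ddit3 was higher. The F of Hspa5 rose to 16.8 with quantile normalization (limma adjusted p = 0.00464) and to 10.5 with 75th percentile scaling (limma adjusted p = 0.0135). Hspa5 also missed 5% without male 5 (limma adjusted p = 0.0692), female 7 (limma adjusted p = 0.0522) or female 8 (limma adjusted p = 0.0505), with the deposited ratio table (limma adjusted p = 0.0697) and with no filter on dim probes (limma adjusted p = 0.0664). By limma's F-statistic 0 of the 5 probes passed 1%, against 2.79% of all probes, and 3 of 5 had an unadjusted p under 0.05, against 37.1% of all probes. Those were Hspa5 (limma adjusted p = 0.0325), Ddit3 (F = 4.16, limma adjusted p = 0.0856) and Atf5 (F = 3.38, limma adjusted p = 0.122). Eif2ak3 had F = 2.22 (limma adjusted p = 0.236) and Atf4, with its wide difference in female 3, F = 1.06 (limma adjusted p = 0.537). Without female 3 the F of Atf4 was 6.10 (limma adjusted p = 0.0476). That of Ddit3 was 1.45 without female 4 (limma adjusted p = 0.416) and 2.38 without female 7 (limma adjusted p = 0.256), while it passed 5% without male 6 (limma adjusted p = 0.0196), with 75th percentile scaling (limma adjusted p = 0.0474) and with quantile normalization (limma adjusted p = 0.0321). Atf5 fell to 2.19 without female 7 (limma adjusted p = 0.281).
With slide as a block, which leaves only rats of 1 slide or of linked slides to be compared, the F of Hspa5 fell to 0.47 (limma adjusted p = 0.856) and that of Ddit3 was 3.23 (limma adjusted p = 0.317). Rats 1 to 4, on slides 1 and 2, were separated from rats 5 to 8 in 11.3% of all probes and in 0 of the 5.

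Whether the 5 genes rose and fell together over the 8 rats was asked for all 10 pairs. The strongest relations were Atf4 with Atf5, Atf4 with Hspa5 and Eif2ak3 with Hspa5, and none of the 10 passed 5% after adjustment. Atf4 and Atf5 ran opposite ways on the median scale (r = -0.83, exact permutation p = 0.0115, adjusted 0.057; rho = -0.64, exact permutation p = 0.0962, adjusted 0.287), but r was 0.55 with quantile normalization and 0.48 with normexp, so the direction depends on the processing. Without males 5 and 6, which were farthest from the median of Atf4, r was -0.47. Atf4 and Hspa5 ran the same way (r = 0.81, exact permutation p = 0.0158, adjusted 0.057; rho = 0.67, exact permutation p = 0.0831, adjusted 0.287), and without males 5 and 6 r was 0.024, so that over rat means it rests on those animals together, while leaving out any 1 rat gave 0.67 to 0.91. Males 5 and 6 shared slide 3 and also had the highest averages of the blood list (7.31 and 7.91, against 4.03 to 7.07 in the other rats), and the part of blood in these relations was not tested. Eif2ak3 and Hspa5 ran opposite ways (r = -0.80, exact permutation p = 0.0171, adjusted 0.057; rho = -0.76, exact permutation p = 0.0368, adjusted 0.287), and r was -0.82 without males 1 and 6, but 0.36 with normexp. Over the 15 arrays centered on their slide, r was 0.26 for Atf4 with Atf5, 0.60 for Atf4 with Hspa5 and 0.28 for Eif2ak3 with Hspa5, so the negative relations turned positive within slides.

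**Figure D4:**
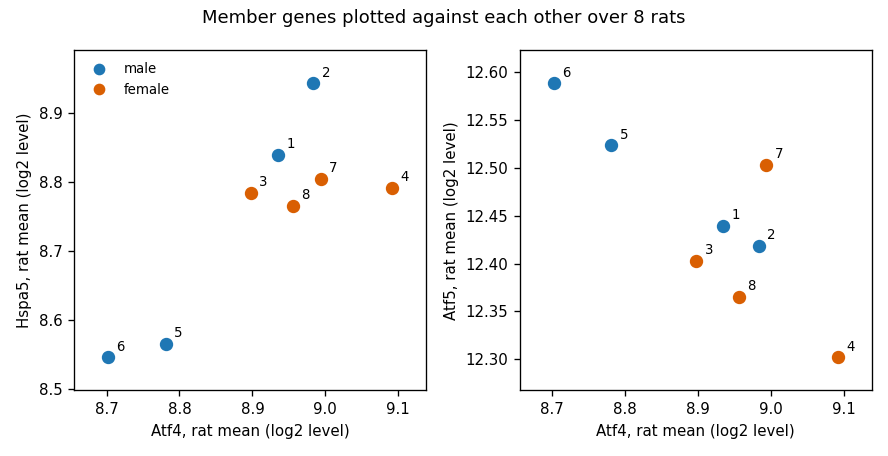
Rat means (log2 level) of Atf4 on the horizontal axes against Hspa5 on the left and Atf5 on the right, with 1 point per rat, numbered, males in blue and females in orange. Males 5 and 6, both on slide 3, sit apart at low Atf4 (8.78 and 8.70), with low Hspa5 and high Atf5, and the relation of Atf4 with Atf5 turns positive with quantile normalization or normexp.

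The genes most like each of the 5 were sought by Pearson's r over the 15 arrays among 12651 probes with a gene symbol and expressed on at least 11 arrays. These are descriptions, since the arrays share slides and animals. Atf4 was followed most closely by Pcna, the sliding clamp of DNA replication (r = 0.97), Ankrd13 (r = 0.96) and Gtf2h2, a subunit of general transcription factor IIH (r = 0.96), and without the arrays of female 3 these were 0.96, 0.96 and 0.94. The nearest to Atf5 were Plunc, a secreted protein of the nasal and airway epithelium (r = 0.93), the kinesin light chain Klc4 (r = 0.93) and the vacuolar sorting gene Vps16 (r = 0.93). For Ddit3 they were the histone gene Hist1h2ao, Pias4 and Ptk9l (r = 0.94, 0.94 and 0.93). Hspa5 was nearest to the mitochondrial ribosomal protein gene Mrpl55, Abhd6 and the splicing kinase gene Prpf4b (r = 0.91, 0.89 and 0.89). Eif2ak3 was nearest to Ppp2r2b, the neuronal RNA-binding protein gene Elavl3 and Hspa5bp1, named for a protein that binds BiP (r = 0.88, 0.84 and 0.84). After centering on slides these r values fell to between 0.91 and 0.92 for the 3 genes near Atf4 and to between 0.25 and 0.60 for those near Eif2ak3.

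The pathway around these genes was described with 5 lists holding 62 probes, of which 60 were tested. Between the sexes and between nostrils 0 of the 60 passed 1% by limma, where 0.0434% and 0% of all probes did. Between rats of 1 sex 1 of 60 passed 1%, against 2.79% of all probes. An unadjusted p under 0.05 was found in 28 (46.7%), against 37.1% of all probes. The median F over the 60 was 3.03, against 2.37 over all probes, and the median range over rats was 0.40 log2 units, against 0.47. At 5%, 11 of 60 (18.3%) passed between rats, against 16.1% of all probes. With slide as a block 0 of the 60 passed between rats at 1%, where 0.0036% of all probes did. In that fit the 11 had limma adjusted p of 0.190 (Selenos) to 0.644 (Atf6).

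The one probe that passed belonged to Emx2, a homeobox factor needed for normal expression of many olfactory receptor genes. On probe A_44_P349348 its level was highest in female 4 (3.36) and lowest in female 8 (2.45), a range of 1.88-fold (F = 18.6, limma adjusted p = 0.00441, and adjusted p = 0.253 with slide as a block). Leaving out female 4, female 7 or female 8 also ended the call, leaving 0 of 60 each time. The other Emx2 probe, A_44_P915344, ran from 7.68 in male 2 to 7.97 in female 3 and did not pass (limma adjusted p = 0.129). The probes of 1 gene thus disagreed.
In the same list of receptor choice and export, the chaperone genes Rtp1 and Reep1, the factors Lhx2 and Ldb1, the demethylase Kdm1a and Adcy3 were detected on all 15 arrays. The widest ranges there after Emx2 were those of Reep1 (0.93 to 1.51) and Ldb1 (3.06 to 3.52, limma adjusted p = 0.0313). Rtp2, a receptor transporting protein, was well above background on 1 array only.

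Among the 11 probes for stress sensors, eIF2 kinases and their regulators, 0 passed 1% between rats, against 2.79% of all probes. At 5% there were 2 (18.2%), against 16.1% of all probes. Those were Atf6, the membrane-bound sensor cut in the Golgi (4.40 in female 8 to 4.88 in male 6, limma adjusted p = 0.0307), and Ern1, which encodes IRE1 (3.50 in male 5 to 3.94 in female 3, limma adjusted p = 0.0439). The widest ranges were those of Mbtps2, the protease that releases ATF6 (-2.06 to -1.20), Eif2ak2, the PKR kinase, on probe A_44_P313825 (-0.46 to 0.21), and Ppp1r15a (5.54 to 6.07). Mbtps2 was well above background on 14 of 15 arrays, and its lowest values lie near the detection limit.

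Of 14 probes for targets of ATF4 and CHOP, 13 were tested and 0 passed 1% between rats, against 2.79% of all probes. At 5% there were 3 (23.1%), against 16.1% of all probes. Atf3, a stress-induced factor, ranged most, from 1.66 in male 1 to 2.71 in male 2 (2.07-fold, limma adjusted p = 0.106), and these males were on the same slide. Chac1, which degrades glutathione, ranged from -2.29 to -1.44 on the dimmer of its probes, and the serine synthesis gene Psat1 from -1.96 to -1.32. Those probes were well above background on 12 and 14 arrays, and their lowest values lie near the detection limit. The pseudokinase gene Trib3 (limma adjusted p = 0.0202), asparagine synthetase Asns (limma adjusted p = 0.0313) and the oxidase gene Ero1a on probe A_44_P212826 (limma adjusted p = 0.0458) passed 5%. Slc7a11, a cystine transporter, was well above background on 0 arrays.

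Of 18 probes for ER chaperones and foldases, 0 passed 1% between rats, against 2.79% of all probes. At 5% there were 3 (16.7%), against 16.1% of all probes. Dnajc3 ranged most, from 3.72 in male 5 to 4.68 in female 4 (limma adjusted p = 0.0740), followed by Creld2 (4.62 in female 3 to 5.30 in female 7) and the lectin chaperone Calr (5.41 in female 4 to 6.01 in male 5, limma adjusted p = 0.0117). Pdia4 (limma adjusted p = 0.0177) and Pdia6 on probe A_44_P148407 (limma adjusted p = 0.0443), both disulfide isomerases, also passed 5%. With slide as a block 3 of the 18 passed 1% between the sexes, Creld2 (-0.90), Pdia6 on probe A_43_P11330 (-0.53) and Dnajc3 (-0.47), where 1.7% of all probes did, a fit in which nostril A of female 3 is the only female array opposite male ones. In the comparison of rat means without slide, Dnajc3 was at 0.36 toward females (limma adjusted p = 0.321). Of 10 probes for ER-associated degradation, which clears misfolded proteins, 0 passed 1% between rats, against 2.79% of all probes. The widest were Syvn1, the ubiquitin ligase HRD1, on probe A_44_P871622 (5.41 to 6.39), Edem1 on its dimmest probe, detected on 13 arrays (-2.23 to -1.32), and Selenos (7.29 in female 8 to 7.95 in female 3, limma adjusted p = 0.0106).

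**Figure D5:**
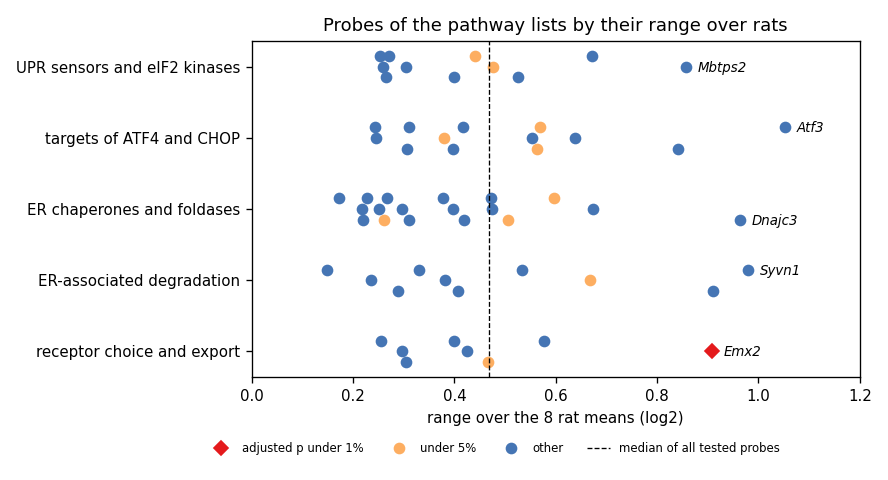
Range over the 8 rat means in log2 units (horizontal axis) of each tested probe in 5 pathway lists, with probes past 1% between rats of 1 sex as a red diamond, past 5% in orange and others in blue, and the probe of widest range named. The diamond is an Emx2 probe at 0.91, and the dashed line is the median of all tested probes, 0.47.

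Levels of cell type markers are given beside these values and do not measure the share of each cell type in the tissue. Over the 8 rats the averaged level of the mature olfactory neuron list (9 of 9 probes tested) ran from 5.80 to 6.09 and that of the sustentacular cell list (6 of 6) from 6.90 to 7.25. The plasma and B cell list (3 of 5 tested) ran from 1.21 in female 3 to 2.54 in male 6. Most of that range lies in the B cell marker Cd79b (-1.39 in female 3 to 1.79 in male 6), while Sdc1 ran from 6.81 in male 1 to 7.33 in female 7 and Mzb1 was well above background on 10 arrays. The plasma cell markers Jchain and Prdm1 were well above background on 0 arrays. The macrophage list (4 of 8) ran from 3.22 to 3.75, the bone list (4 of 5) from 5.93 to 7.26, the ciliated respiratory cell list (4 of 4) from 6.42 to 6.95 and the immature olfactory neuron list (6 of 6) from 7.82 to 8.11. The 1 tested muscle probe of 3, Tnnt3, ran from -2.72 to -0.059. Rats 1 to 4 lay below rats 5 to 8 in the ciliated list (6.42 to 6.68 against 6.73 to 6.95). The same held for Tnnt3 (-2.72 to -2.07 against -1.68 to -0.059), and in the other lists these rats overlapped. The part of these cell types in the differences between rats was not tested.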

How the data were processed

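The authors scanned 1-color Cy3 arrays and extracted the intensity of each spot with Agilent Feature Extraction 9.5.1.1, per the file headers with background and spatial trends removed. The deposited intensities were divided by the median of their array, floored at 0.1 of it and turned to log2, after spots flagged as outliers were left out and spots of 1 probe averaged. A ratio table that the authors deposited beside them was used as an alternative only. Probes well above background on at least 7 arrays were tested with limma 3.58.1 in R 4.3.3 (eBayes with a trend, Benjamini-Hochberg over all probes, 1%). Nostrils were averaged per rat for the sexes, rat was a block for nostrils, and an F over rats within each sex used nostrils as error. The fits were tested on simulated data. Permutation tests were exact, in Python 3.11.15 with scipy 1.17.1. The number of rats limits the precision. Named are all 5 probes, list genes past 1% in a comparison or the 3 widest probes of each list (those past 5% were added after their values were seen), and the 3 nearest genes of each member. The members and lists were chosen with earlier results of these data known. Promoters and names of genes are those of RefSeq (GRCr8) and of the array.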

Additional observations from a re-analysis of the deposited data

Results flagged for a closer look

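A set of 15 groups of values were examined for a single rat standing apart by Dixon's criterion, namely the 4 males, the 4 females and the 7 differences between nostrils for each of 5 genes. The criterion is set so that chance marks about 1 in 20 such groups, and 2 of 15 were marked. The share marked over all probes was not counted. The Atf4 difference between nostrils of female 3, 0.60, stood apart from the next highest rat at 0.15, and the arrays of this animal lay on different slides. The Ddit3 difference between nostrils of male 6, 0.29, stood apart from the next highest at 0.05, and both arrays of this animal lay on slide 3. Hspa5 also differed most between nostrils in male 6, at 0.21, without standing apart by the same criterion. These 2 animals were also the most extreme over the whole array. The nostril difference lay outside that of the other 6 rats in 43.7% of all probes for female 3 and 35.3% for male 6. For the other rats the share was 18.2% to 27.1%.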

How the results depend on the processing

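All 5 probes were expressed by either detection call, and 0 of 5 passed 1% between the sexes or between nostrils in any alternative. Between rats, 1 of 5 passed after quantile normalization, Hspa5, and 0 of 5 in the other alternatives, including each fit without 1 rat. Of the pathway probes called between rats, 4 passed with 75th percentile scaling and 5 with quantile normalization, where the share of all probes rose too, from 2.79% to 4.73% and 5.26%. There were 0 with normexp, the deposited ratio table or slide as a block, where the share was 0.283%, 1.29% and 0.0036%. Leaving out 1 rat gave 0 to 3, and with no filter the 1 call was Calr in place of Emx2. Of the 10 correlations, 2 passed 5% after quantile normalization (Atf4 and Eif2ak3, each with Hspa5), and 0 to 1 when 1 rat was left out. The 1 was Atf4 with Atf5 without female 7 (r = -0.96). The mean of all expressed probes of a gene changed nothing, as each gene has 1. The Ddit3 sex difference stayed between -0.37 and -0.24 in every alternative, at adjusted p of 0.011 (15 arrays as independent) to 0.792.

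Signs turned as follows, with no adjusted p under 1%. The Eif2ak3 sex difference was -0.021 with 75th percentile scaling, -0.015 with quantile normalization, -0.0100 with normexp, -0.013 with 15 arrays as independent, and -0.040 to 0.045 without 1 rat. With slide as a block Atf4 was at -0.38 and Hspa5 at -0.16 between the sexes, Hspa5 was at -0.00027 with normexp, and Atf5 at 0.14 with quantile normalization. For nostrils, normexp gave -0.031 (Eif2ak3), -0.030 (Atf4), -0.106 (Ddit3) and -0.052 (Hspa5), and quantile normalization gave 0.017 (Atf5) and -0.0017 (Ddit3). Without 1 rat the Ddit3 nostril difference ran from -0.033 to 0.036. For Eif2ak3 with Hspa5, r was 0.36 with normexp and 0.28 within slides. For Atf4 with Atf5 it was 0.55 with quantile normalization, 0.48 with normexp and 0.26 within slides. The cause was not tested. No paired analysis was possible because the sexes share no rat number. Without rat as a block, 0 of 5 passed between nostrils.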
